A study of Mus musculus with 6 samples.

Results

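The genes described here are those of the 4 mouse Mef2 transcription factors (Mef2a, Mef2b, Mef2c and Mef2d) and of the 4 class IIa histone deacetylases (Hdac4, Hdac5, Hdac7 and Hdac9), 8 of 21911 protein-coding genes. For each gene, every Maf peak and every H3K27ac region in the gene body or within 50 kb of any of its annotated transcript starts was collected. This stretch is called the search span, and all positions refer to GRCm38 with GENCODE transcripts. The regions came from ChIP-seq of nuclei isolated from gastrocnemius and quadriceps muscles of wild-type mice aged 2 months, for which the methods name the strain C57BL/6 N, and no treatment was given. There were 6 samples: 2 of Maf, 2 of H3K27ac and 2 inputs, described as biological replicates. Maf is a bZIP transcription factor of the large Maf group, and H3K27ac is a histone acetylation found at active promoters and enhancers. The inputs were not analysed here.

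Mef2 proteins are MADS-box factors that bind A/T-rich sites in the control regions of many muscle genes and work together with the myogenic bHLH factors. Class IIa deacetylases bind Mef2 directly and hold its targets silent. Calcium-dependent and other kinases phosphorylate them, 14-3-3 proteins then carry them out of the nucleus, and Mef2 is released to activate transcription. In adult muscle this switch is known for linking nerve activity to fiber type and to contractile and metabolic gene programs.

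The lists held 74 Maf peaks in replicate 1 and 5467 in replicate 2, and 44887 and 44987 H3K27ac regions. The score column was 1 in every row, so no peak height could be compared. The place of a peak in its list was used as a stand-in for strength, although nothing in the files says that they are sorted. Parts of the replicate 2 list ran in chromosome order: positions 2816, 2847 and 2878 lay on chromosomes 8, 10 and 12. Within such parts a position gives the place in the genome, so list positions are at best a coarse order. The read depth behind a peak is unknown. Of the myofiber markers, 5 of 5 (Acta1, Ckm, Mylpf, Tnnt3 and Myh4) carried promoter H3K27ac in both replicates, that is, a region within 1 kb of a start. The same held for 4 of 4 endothelial, 3 of 3 fibro-adipogenic, 2 of 2 smooth muscle and 3 of 3 macrophage markers. It held for 0 of 3 slow fiber markers (Myh7, Tnnt1 and Myl2) and for 0 of 3 liver markers in either replicate. Of the satellite cell markers, Pax7 was marked in both replicates and Myf5 in replicate 2 only. The part of these cell types in the regions at the 8 genes was not tested. In whole muscle, a region marked in few nuclei cannot be told apart from one marked weakly in many.

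Maf peaks were found at 6 of the 8 genes, and 10 peaks were found in all, each 281 bp wide and each in an intron. The Mef2 genes had 3 of these peaks, 1 each at Mef2a, Mef2b and Mef2c. The deacetylase genes had 7, with 4 at Hdac4, 2 at Hdac9 and 1 at Hdac5. The sequences of 5 peaks are given because the results on motifs turn on them: each holds the longer Maf half-site TGCTGAC, or the short Maf sequence TGCTGA more than once. Mef2c-1, with a single TGCTGA, is not shown. Capitals mark TGCTGA or TGCTGAC on either strand, and the plus strand of the RefSeq GRCm38.p6 genome is shown, 5′ to 3′. The peaks of a gene are numbered by position on the chromosome: Mef2a-1 lies at chr7:67342237-67342517, Mef2b-1 at chr8:70104607-70104887, Hdac4-1 at chr1:92044069-92044349, Hdac4-3 at chr1:92097031-92097311 and Hdac9-2 at chr12:34521902-34522182.
Mef2a-1: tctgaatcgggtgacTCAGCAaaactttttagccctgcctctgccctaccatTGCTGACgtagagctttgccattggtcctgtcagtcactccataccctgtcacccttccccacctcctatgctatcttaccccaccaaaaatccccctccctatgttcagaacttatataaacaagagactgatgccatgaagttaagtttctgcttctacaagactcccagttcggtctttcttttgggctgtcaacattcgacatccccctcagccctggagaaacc
Mef2b-1: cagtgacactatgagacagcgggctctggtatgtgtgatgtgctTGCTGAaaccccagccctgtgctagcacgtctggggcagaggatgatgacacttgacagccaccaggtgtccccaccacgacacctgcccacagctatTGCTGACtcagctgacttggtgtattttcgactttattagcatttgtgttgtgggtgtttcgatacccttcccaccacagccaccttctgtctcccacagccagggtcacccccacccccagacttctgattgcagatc
Hdac4-1: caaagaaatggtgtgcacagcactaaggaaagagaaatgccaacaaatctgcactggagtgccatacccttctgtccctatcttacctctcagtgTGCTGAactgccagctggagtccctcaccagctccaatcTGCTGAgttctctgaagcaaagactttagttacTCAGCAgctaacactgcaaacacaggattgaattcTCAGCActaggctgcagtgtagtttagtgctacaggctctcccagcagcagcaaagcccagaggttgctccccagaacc
Hdac4-3: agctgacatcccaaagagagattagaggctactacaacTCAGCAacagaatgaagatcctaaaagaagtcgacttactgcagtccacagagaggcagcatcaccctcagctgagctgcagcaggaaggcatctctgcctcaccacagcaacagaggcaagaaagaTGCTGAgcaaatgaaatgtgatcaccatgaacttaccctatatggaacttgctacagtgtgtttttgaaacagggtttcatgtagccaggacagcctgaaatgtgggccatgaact
Hdac9-2: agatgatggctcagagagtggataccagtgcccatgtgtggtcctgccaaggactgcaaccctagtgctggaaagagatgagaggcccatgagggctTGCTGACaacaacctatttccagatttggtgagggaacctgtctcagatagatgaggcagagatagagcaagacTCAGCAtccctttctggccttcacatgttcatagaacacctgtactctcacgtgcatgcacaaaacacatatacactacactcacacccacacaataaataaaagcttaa

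The share of genes with a Maf peak was 75% (exact Clopper-Pearson 95% interval 34.9 to 96.8%) for the 8 genes and 32.2% for all protein-coding genes. Intervals cover counting error over genes or peaks only, and no test between samples could be made from lists without read counts. The 8 genes had longer search spans, with a median of 178 kb against 104 kb for all genes, and a longer span holds more peaks. Among genes with spans of 100 to under 150 kb, 2 of 3 members had a peak (Mef2b and Hdac5, not Mef2d), against 29.8% of all such genes. In the band from 150 to under 300 kb it was 2 of 3 (Mef2a and Mef2c, not Hdac7), against 43.6%. From 300 kb it was 2 of 2 (Hdac4 and Hdac9), against 50.9%. Per Mb of span, the 8 genes held 4.43 Maf peaks and all genes 3.62. All 10 peaks came from the list of Maf replicate 2, and replicate 1, with its 74 peaks, had 0.

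Hdac4, whose product represses Mef2 targets in muscle, had the most Maf peaks of the 8 genes. Its 4 peaks gave 11.1 per Mb of span, and 4 or more peaks were found at 8.86% of the 813 genes with spans from 300 kb. Hdac4 lies on the minus strand of chromosome 1, from 91928779 to 92195699. Hdac4-4, at chr1:92180841-92181121, was centred 640 bp upstream of the nearest start. This start lies 15358 bp downstream of the annotated 5′ end of the gene, and together with another start close by it serves 2 coding transcripts. Hdac4-4 was the only one of the 10 peaks within 1 kb of a start of its gene. Thus 1 of 8 genes had a promoter peak, against 5.58% of all genes. Hdac4-3 stood highest of the 10 in the list of replicate 2, at position 642 of 5467. It lay inside an H3K27ac region of 8055 bp in replicate 1 and of 22016 bp in replicate 2. Hdac4-1 and Hdac4-2, at chr1:92049185-92049465, lay further into the gene, at list positions 1623 and 4132, in separate H3K27ac regions. The region around Hdac4-1 was 2818 bp wide in replicate 1 and 3372 bp in replicate 2. The region around Hdac4-2 was 2411 and 2700 bp wide, and that around Hdac4-4 was 2791 and 2978 bp wide.

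Hdac9, whose short form MITR lacks the deacetylase domain, lies on the minus strand of chromosome 12, from 34047580 to 34917095. Its 2 Maf peaks lay 9074 bp (Hdac9-1) and 6262 bp (Hdac9-2) downstream of the nearest start, at list positions 5209 and 2878. Both lay in the same H3K27ac region, which was 7779 bp wide in replicate 1 and 7751 bp in replicate 2. Of the 3608 merged H3K27ac regions with a Maf peak, 164 (4.55%) held 2 or more. The start nearest to these peaks belongs to a group of 3 starts, which serve 6 coding transcripts. The group begins 388221 bp downstream of the annotated 5′ end, so both peaks lay near inner starts of a very long gene.

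Hdac5, a deacetylase exported from the nucleus after phosphorylation by calcium-dependent kinases, had 1 peak outside its own body. The gene lies on the minus strand of chromosome 11, from 102194432 to 102230166. Hdac5-1, at chr11:102167405-102167685, was in an intron of Lsm12, and the nearest start was that of Tmem101, 11141 bp away. It stood at list position 4616 in a region of 2577 bp in replicate 1 and 2552 bp in replicate 2. Hdac7, known for its role in endothelium and thymocytes, had 0 Maf peaks in its span. The gene lies on the minus strand of chromosome 15, from 97792664 to 97844502, and the nearest Maf peak to its starts was 375892 bp away.

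Mef2a, a Mef2 factor expressed in adult muscle, lies on the minus strand of chromosome 7, from 67231163 to 67372858. Mef2a-1 was centred 30481 bp downstream of the annotated 5′ end, in an intron, at list position 3845. It lay in a narrow H3K27ac region of 501 bp in replicate 1 and 783 bp in replicate 2. Mef2c, a factor needed for heart and skeletal muscle development, lies on the plus strand of chromosome 13, from 83504034 to 83667080. Its peak, at chr13:83647343-83647623, was 143449 bp downstream of the 5′ end, at list position 4690, and overlapped no H3K27ac region in either replicate. The nearest start of Mef2c, a coding start 148854 bp downstream of the 5′ end, was 5405 bp away, with the peak upstream of it.

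Mef2b, the most divergent member of the family, lies on the plus strand of chromosome 8, from 70139711 to 70167488. Mef2b-1 was 34964 bp upstream of its nearest start, in an intron of Ncan, a brain proteoglycan gene whose start was nearer, at 16126 bp. It stood at list position 2816 and overlapped no H3K27ac region in either replicate. Mef2d, a factor with a muscle-specific splice form, lies on the plus strand of chromosome 3, from 88142372 to 88172086, and had 0 Maf peaks in its span. The nearest one was 128846 bp from its starts, at the start of Cct3, which encodes a chaperonin subunit. By start, 8 of the 10 peaks were nearest to one of the 8 genes, and 2 to another gene, Tmem101 or Ncan.

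**Figure D1:**
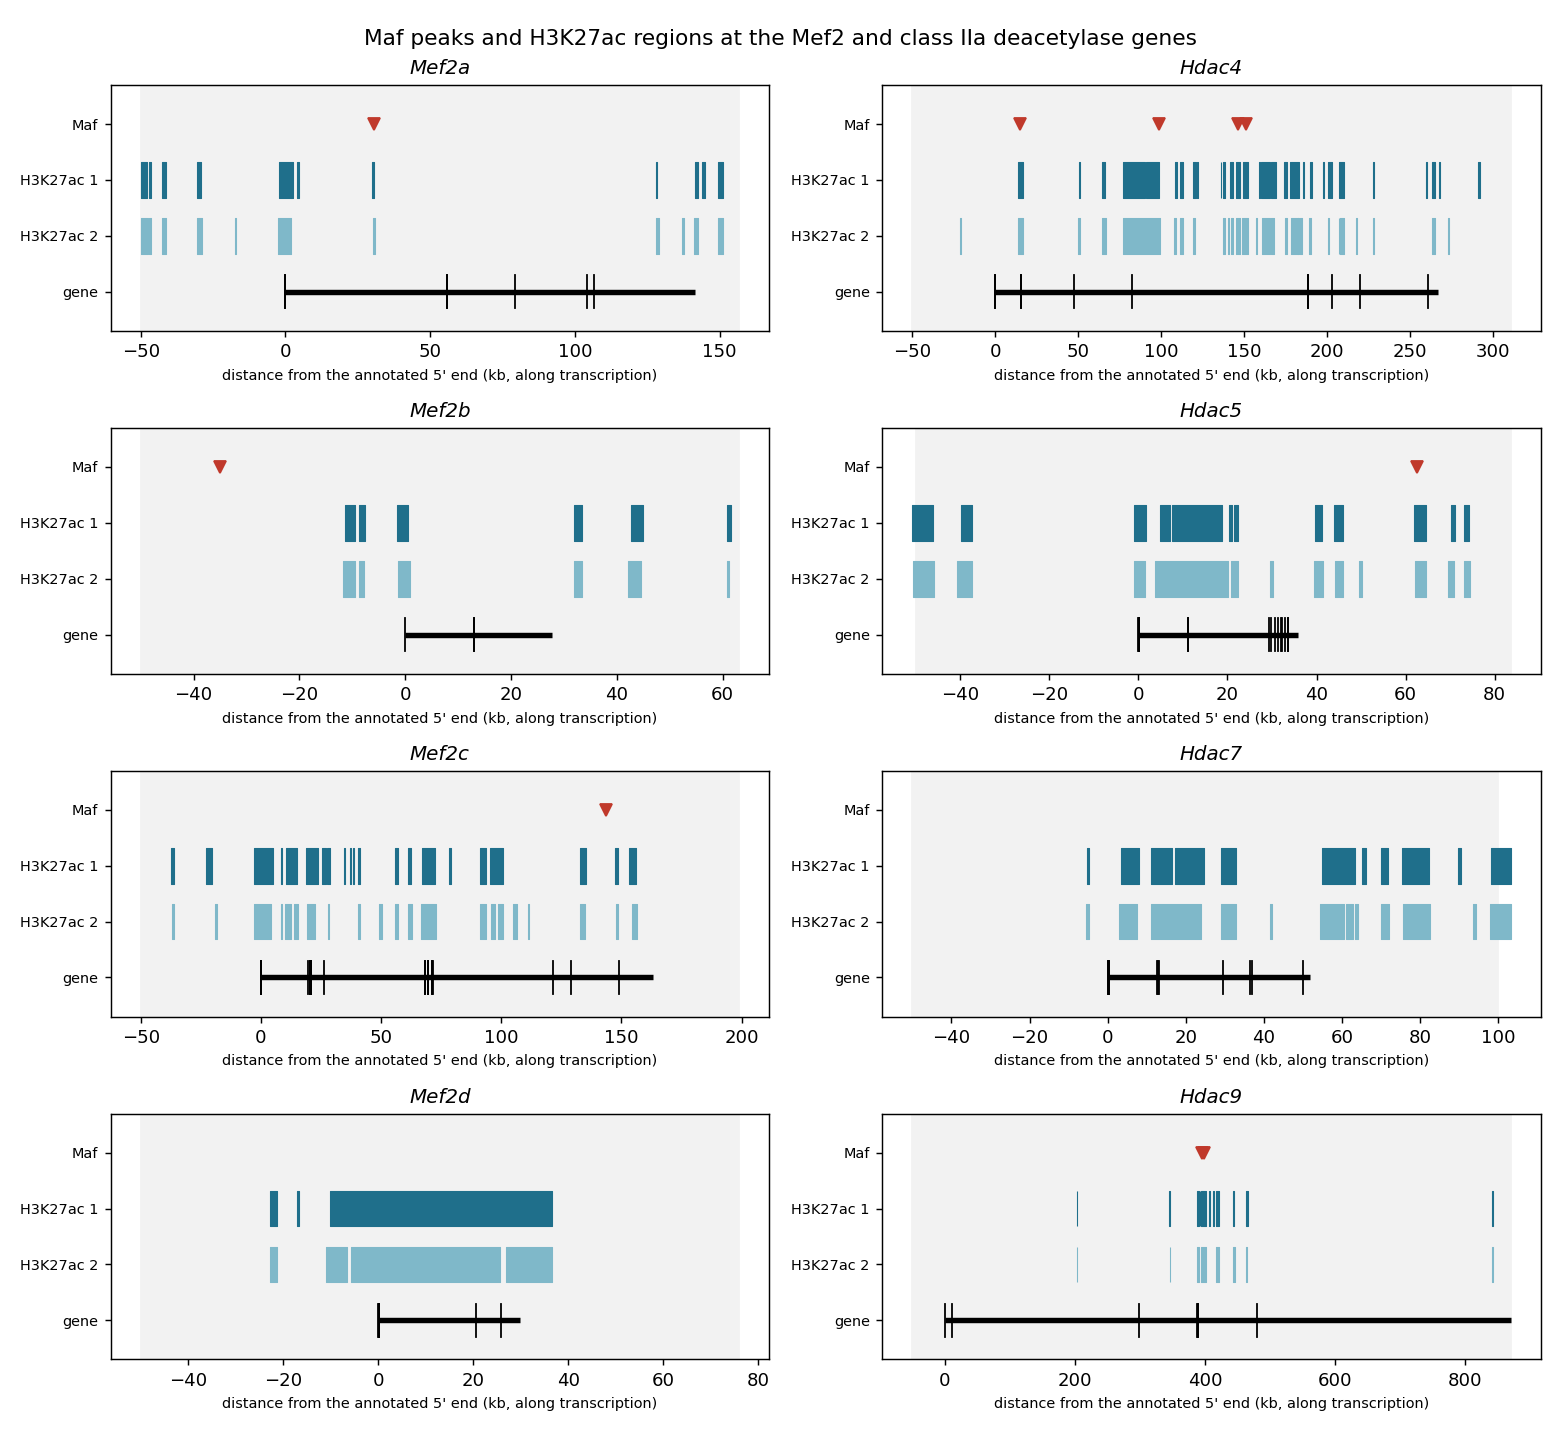
Maps of the 8 genes, with the distance from the annotated 5′ end in kb along transcription on the x axis. Triangles are Maf peaks, bars are H3K27ac regions of replicates 1 and 2, the black line is the gene with its transcript starts as ticks, and grey is the search span. Hdac4 has 4 Maf peaks, Mef2d and Hdac7 have 0, and Mef2d lies under nearly continuous H3K27ac.

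H3K27ac was found at 8 of the 10 Maf peaks, in both replicates at each of the 8. This is 80% (exact Clopper-Pearson 95% interval 44.4 to 97.5%), against 69.2% of all 5485 merged Maf peaks, which lies inside the interval. By family, 1 of 3 peaks at the Mef2 genes and 7 of 7 at the deacetylase genes were marked, with no test made on counts of this size. Of the 7, 4 were at Hdac4 and 2 shared a region at Hdac9, so they are not independent. Mef2b-1, unmarked, and Hdac5-1, marked, lay nearer to starts of other genes. The 10 peaks stood at a median of 61.5% of the way down the list of replicate 2, and 3 of them, all at Hdac4, were in its first 50%.

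The half-site TGCTGAC, the longer sequence searched for Maf, was in 4 of the 10 peaks within 200 bp around the centre (40%), against 20.9% of all Maf peaks. Among them were Mef2a-1 (88 bp before the centre on the plus strand), Mef2b-1 and Hdac9-2. The shorter TGCTGA, part of the first motif, was in 7 of 10 (70%), against 46.2% of all Maf peaks. Over the whole peak it was present 4 times in Hdac4-1 and 2 times in Hdac4-3. Hdac4-2, Hdac4-4 and Hdac5-1 held neither, also over their whole width. Both strands were searched, and a match describes letters, not binding.

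Mef2b-1, unmarked and 34964 bp from Mef2b, held the fullest match. Its TGCTGAC, 2 bp after the centre, began a full Maf site with at most 2 mismatches. This site overlapped an AP-1 site (TGACTCA or TGAGTCA) and an E-box CAGCTG, the kind of site that myogenic bHLH factors bind. The full Maf site has the AP-1 sequence at its middle, so the Maf and AP-1 matches are not independent. AP-1 was in 10% of the 10 peaks and in 9.9% of all Maf peaks within 200 bp. Within 200 bp around the centre, such a full site was in 1 of 10 peaks, against 11.8% of all Maf peaks. Over the whole peak, Mef2a-1 held a full-site match as well, again with AP-1 at its middle. CAGCTG was in Mef2b-1, Hdac4-1 and Hdac4-3, which is 30% of the 10 peaks against 19.5% of all. The general E-box CANNTG went the other way, in 5 of 10 peaks (50%) against 66.7% of all. Over the whole peak it was in 70% against 78%. In both Hdac4-1 and Hdac4-3, CAGCTG began 34 bp before the centre. The Mef2 consensus was in 0 of the 10 peaks, against 5.69% of all Maf peaks within 200 bp and 7.68% over the whole peak.

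**Figure D2:**
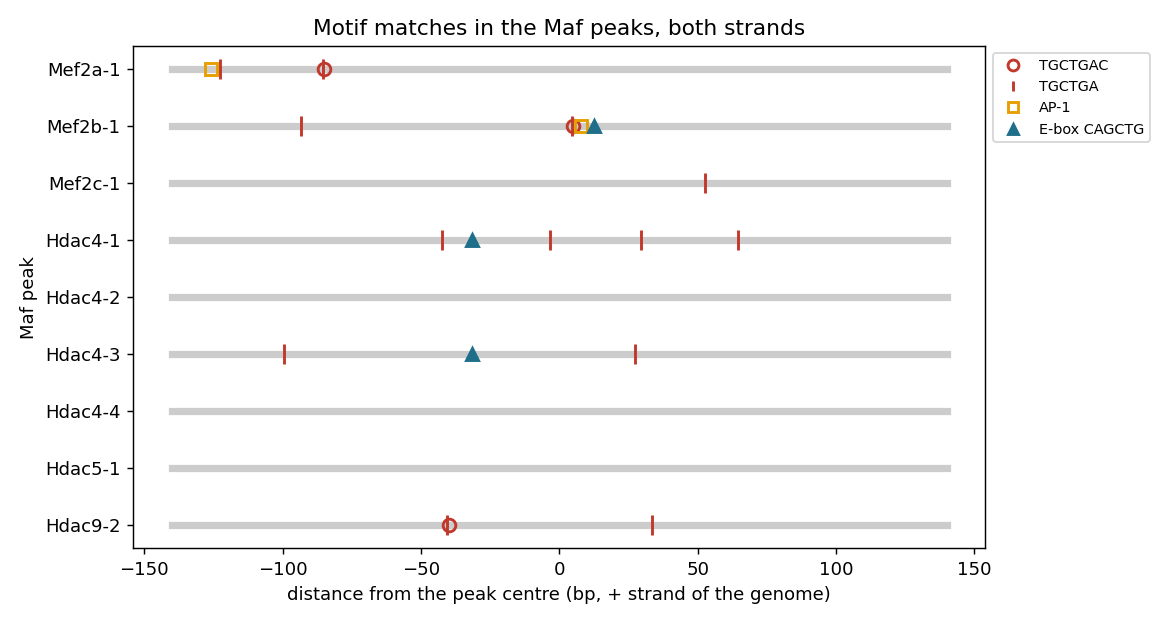
Position of motif matches in 9 of the 10 Maf peaks at the 8 genes, with the distance from the peak centre in bp on the x axis and 1 row for each peak. Circles are TGCTGAC, ticks TGCTGA, squares AP-1 and triangles CAGCTG, and the rows of Hdac4-2, Hdac4-4 and Hdac5-1 are empty.

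The Mef2 consensus was present in the promoters of 2 of the 8 genes. RefSeq promoter windows, from 250 bases before to 50 after a start, matched all 8 genes with 14 windows. The consensus was in 2 of these 14 windows and in 3.19% of all 32851 windows. In the Mef2a window, chr7:67372809-67373108 on the minus strand, it covered positions -2 to 8 counted from the start as position 1. In the Hdac5 window, chr11:102230123-102230422 on the minus strand, it covered positions -20 to -11. A match within 25 bases of the start, a limit set after these positions were seen, was in 0.262% of all windows. Both windows lay in H3K27ac regions of both replicates, 4985 and 4535 bp wide at Mef2a and 2721 and 2315 bp wide at Hdac5. They are shown here, 5′ to 3′ along the gene from RefSeq GRCm38.p6, because they hold a Mef2 site at a Mef2 gene and at a deacetylase gene, with the site in capitals.
Mef2a promoter: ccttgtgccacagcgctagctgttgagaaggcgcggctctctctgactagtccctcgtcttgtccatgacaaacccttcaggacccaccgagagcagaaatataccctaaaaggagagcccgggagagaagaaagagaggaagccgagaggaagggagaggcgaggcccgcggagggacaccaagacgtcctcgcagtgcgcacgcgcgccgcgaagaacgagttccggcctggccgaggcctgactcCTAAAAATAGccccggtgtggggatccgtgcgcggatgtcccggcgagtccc
Hdac5 promoter: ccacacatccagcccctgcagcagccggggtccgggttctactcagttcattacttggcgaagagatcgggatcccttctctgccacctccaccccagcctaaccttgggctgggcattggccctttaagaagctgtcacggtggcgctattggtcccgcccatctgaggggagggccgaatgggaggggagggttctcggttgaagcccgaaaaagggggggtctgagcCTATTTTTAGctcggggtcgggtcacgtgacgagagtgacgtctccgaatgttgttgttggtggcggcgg

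In the merged H3K27ac regions within 1 kb of a start, the 8 genes held 29 Mef2 consensus sites in 149 kb, or 0.195 per kb, against 0.142 per kb at all protein-coding genes. Over every region in the span, Mef2c had 29 sites in 58.1 kb (0.499 per kb) and Hdac9 had 13 in 28.5 kb (0.456 per kb). Mef2d had 8 sites in 49.7 kb (0.161 per kb) and Hdac5 5 in 40.7 kb (0.123 per kb), against 0.18 per kb over all H3K27ac regions. The densities of single genes thus lay on both sides of that of all regions.

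All 8 genes had H3K27ac within 1 kb of a transcript start in both replicates, against 59.6% of all protein-coding genes in either replicate. Any annotated start counted, and the 8 genes had from 3 (Mef2b) to 27 (Mef2c) of them, a number that was not matched. The length covered by H3K27ac in the search span had a median of 39.2 kb for the 8 genes and 5.8 kb for all genes, as the mean of the replicates. As a share of the span these were 18.6% and 4.65%. Covered length counts every region in the span, also those within 1 kb of starts of neighbouring genes, which were 12 of the 117 merged regions. Of the 117, 78 were in both replicates, 22 in replicate 1 only and 17 in replicate 2 only, and 79 touched the gene body. Of the length covered in either replicate, 75.2% was covered in both at the 8 genes and 75.6% at all genes.

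Hdac4 had the largest covered length of the 8 genes, with 69.5 kb in replicate 1 and 63.7 kb in replicate 2. This placed it at percentile 99.7 among all genes by length, and 97.9% of the length lay in the gene body in each replicate. By share of its 361 kb span, 19.3 and 17.6%, it was at percentile 87.2, below Mef2d (98.9), Hdac7 (96), Hdac5 (94.8) and Mef2c (87.6). By length, Mef2c had 50.8 and 42.3 kb (percentile 98.7) and Mef2d 48.8 and 47 kb (percentile 98.9). Hdac7 had 42.8 and 43 kb (percentile 98.2) and Hdac5 32.4 and 38.4 kb (percentile 96.3). Both values of Mef2d and both values of Hdac7 lay between the replicates of Mef2c, so Mef2c could not be ordered against either. Hdac4 stood above all of them in length in both replicates. The part of the length in the gene body was 86.3 and 89.9% at Mef2c and 60.9 and 60.5% at Mef2d. It was 50.4% in each replicate at Hdac7 and 52.1 and 52.5% at Hdac5.

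Hdac9 had 26.8 and 24.3 kb (percentile 90.7 by length), or 2.92 and 2.64% of its 920 kb span, a share at percentile 39.2. Mef2a had 15.9 and 16.4 kb (percentile 78.7 by length and 63.5 by share) and Mef2b had 9.2 and 9.97 kb (percentile 63.7 by length and 65.9 by share). By length Mef2b was thus the lowest of the 8 in both replicates, and only 0.581 and 0.824 kb of its covered length lay in its own body. At Mef2a, 27.9 and 28.2% of the length lay in the gene body. The deacetylase genes covered 172 and 169 kb together, and the Mef2 genes 125 and 116 kb. The median search span was 255 kb for the deacetylase genes and 166 kb for the Mef2 genes, so these lengths do not order the families by density.

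**Figure D3:**
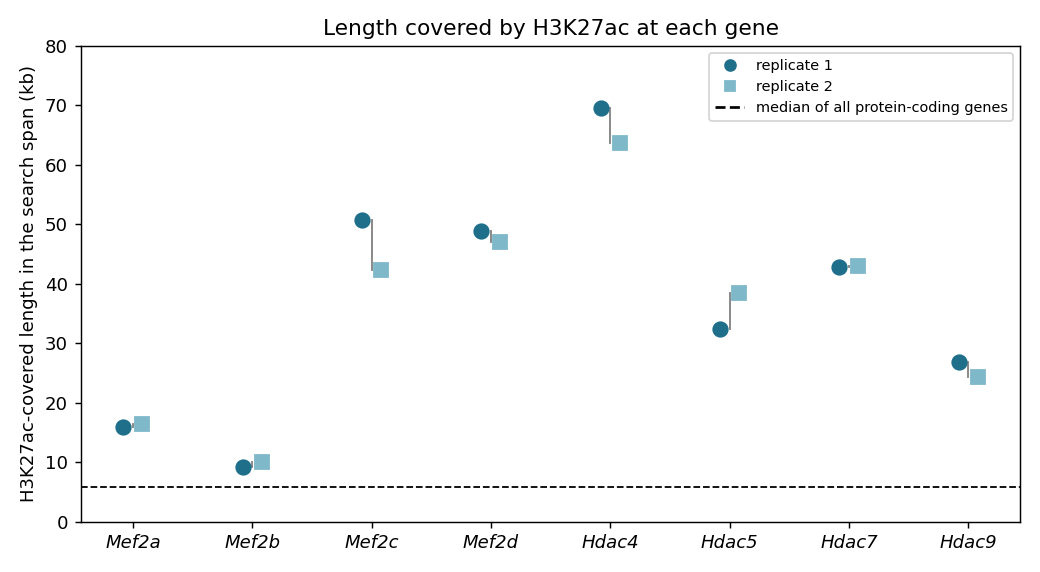
Length covered by H3K27ac in the search span of each gene, in kb, with circles for replicate 1 and squares for replicate 2. The dashed line is the median of all protein-coding genes (5.8 kb), and the 8 genes run from 9.2 kb at Mef2b to 69.5 kb at Hdac4.

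Mef2d had the widest region over a start. In replicate 1 a single region of 46789 bp ran over its start and covered 100% of the gene body, and it ranked as number 3 by width of 44887. In replicate 2 the same stretch was split into pieces of 4425, 31313 and 9746 bp, of which the widest ranked as number 23, and they covered 95.8% of the body. For comparison, the widest region over a start of Tnnt3, the fast troponin T gene, was 37937 bp in replicate 1 and 44266 bp in replicate 2. Regions of 30 kb or more numbered 22 in replicate 1 and 27 in replicate 2.

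The deacetylase genes differed in width. The widest region over a start was 12919 and 22016 bp at Hdac4, 11295 and 16495 bp at Hdac5, and 5506 and 12754 bp at Hdac7. At each of these 3 genes the wider region of replicate 2 was split into 2 pieces in replicate 1. The wide region of Hdac4 lay over a start of noncoding transcripts only, and the region at its marked coding starts was 2791 and 2978 bp wide. At Hdac5 the wide region lay over an inner start with 1 coding transcript. The region at its 5′ end, with 5 coding transcripts, was 2721 and 2315 bp wide. Mef2c had 8073 and 7189 bp, Mef2a 4985 and 4535 bp, Hdac9 3827 and 3980 bp and Mef2b 2100 and 2105 bp. The median over the 8 genes was 8380 bp, against 2218 bp over the 11915 genes with a region over a start in both replicates. Each value is the widest over all annotated starts, from 3 at Mef2b to 27 at Mef2c, and the number of starts was not matched. Only Mef2b was below the median of all these genes.

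**Figure D4:**
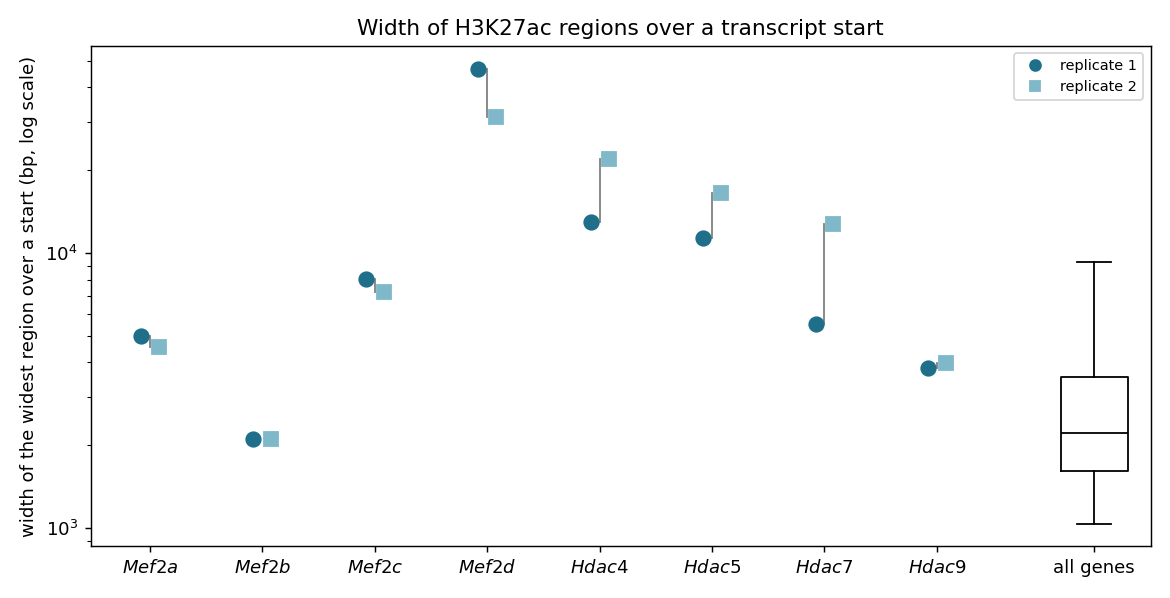
Width in bp, on a log axis, of the widest H3K27ac region over a transcript start, with circles for replicate 1 and squares for replicate 2. The box at the right gives the mean of both replicates over 11915 genes (line, median; box, quartiles; whiskers, percentiles 5 and 95), and Mef2d stands highest of the 8 genes, at 46789 and 31313 bp.

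Which starts were marked differed among the genes. The annotated 5′ end was unmarked in both replicates at 3 deacetylase genes, Hdac4, Hdac7 and Hdac9, and marked at the other 5 genes. At Hdac4 the marked coding starts lay from 15358 bp downstream of the 5′ end, and the starts at the 5′ end belong to 2 noncoding transcripts. At Hdac7, with 4 coding transcripts at the unmarked 5′ end, the marked starts lay 12735 and 29639 bp downstream. At Hdac9 the 5′ end belongs to 1 noncoding transcript, and the marked starts, of 6 coding transcripts, lay from 388221 bp downstream. With the 5′ end alone, 5 of 8 genes had promoter H3K27ac. No share of all genes is given for the 5′ end alone, and the 59.6% of all genes counts any start.

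Mef2c had marked coding starts in more than one place: at the 5′ end, 19439 bp downstream and from 68314 bp downstream. The regions there were 8073, 4807 and 5071 bp wide in replicate 1 and 7189, 3629 and 6326 bp wide in replicate 2. A narrower region, of 1247 bp in replicate 1 and 758 bp in replicate 2, lay at a coding start 148854 bp downstream. Of its 23 distinct coding starts, 22 were marked in replicate 1 and 21 in replicate 2. Mef2d had all 3 coding starts marked, Hdac5 5 of 6 and Mef2a 1 of 2, in each replicate. Hdac7 had 3 of 9 and Hdac9 3 of 5, and Hdac4 had 2 of 4.

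Mef2b had 1 of 3 coding starts marked, and that start lay within 1 kb of starts of Borcs8, a lysosome positioning gene, and Rfxank, an MHC class II regulator. The other starts of Mef2b, from 13067 bp downstream and used by 4 coding transcripts, were unmarked in both replicates. The same held for its RefSeq promoter window. Of the 14 RefSeq windows of the 8 genes, 11 were within 1 kb of H3K27ac in both replicates and 3 in neither, 1 each at Mef2b, Hdac7 and Hdac9.

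The partners of the 8 genes were counted by the same rules. Of 14 kinases that act on class IIa deacetylases, 5 had a Maf peak: Camk2d, Camk2a, Camk2g, Mark2 and Sik3. Camk2d, a calcium/calmodulin kinase, had the highest one, at list position 359, 82472 bp upstream of its nearest start and inside H3K27ac. Camk2a had one at position 525, 3713 bp downstream of its start. The highest at Camk2g, at position 852, lay 15098 bp downstream of its nearest start and carried no H3K27ac. It was nearer to the start of Ndst2, 1317 bp away. Of these kinases, 13 had promoter H3K27ac, and Camk4 did not. Of 7 14-3-3 genes, 3 had a Maf peak (Ywhae, Ywhah and Ywhaq) and 6 had promoter H3K27ac, all but Sfn.

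Of 8 cofactors, 6 had a Maf peak and 8 had promoter H3K27ac. The highest was at Mamstr, which encodes a coactivator of Mef2, at position 823 and 325 bp upstream of its start. Carm1, an arginine methyltransferase that works with Mef2, had one at position 976, 344 bp upstream of its start. The peak at Kat2b, an acetyltransferase gene, stood at position 1106 and was nearer to the start of Sgo1, 446 bp away. Of 5 Mef2 activators, 3 had a peak, at Mapk14 (the p38 alpha kinase, 114 bp upstream), Ppp3r1 (the calcineurin regulatory subunit, 66 bp upstream) and Ppp3ca (a calcineurin catalytic subunit, 15565 bp upstream).

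Of 10 known muscle targets of Mef2 or of class IIa deacetylases, 4 had a Maf peak and 9 had promoter H3K27ac, with Dach2 the exception. The muscle creatine kinase gene Ckm had its peak at position 107, 157 bp upstream of its start. Nr4a1, a nuclear receptor induced by contraction, had 9 peaks, of which 8 carried H3K27ac. Myog, which encodes the bHLH factor myogenin, had its highest peak 91 bp upstream of its start, and Myom1 had 2 peaks. Of the other 7 histone deacetylases, 2 had a Maf peak (Hdac3 and Hdac2) and 7 had promoter H3K27ac. Apart from the cofactors, whose share was 75% (exact Clopper-Pearson 95% interval 34.9 to 96.8%), the interval of each of these lists held the share of all genes, 32.2%. The cofactor genes had a median span of 176 kb, against 104 kb for all genes.

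**Figure D5:**
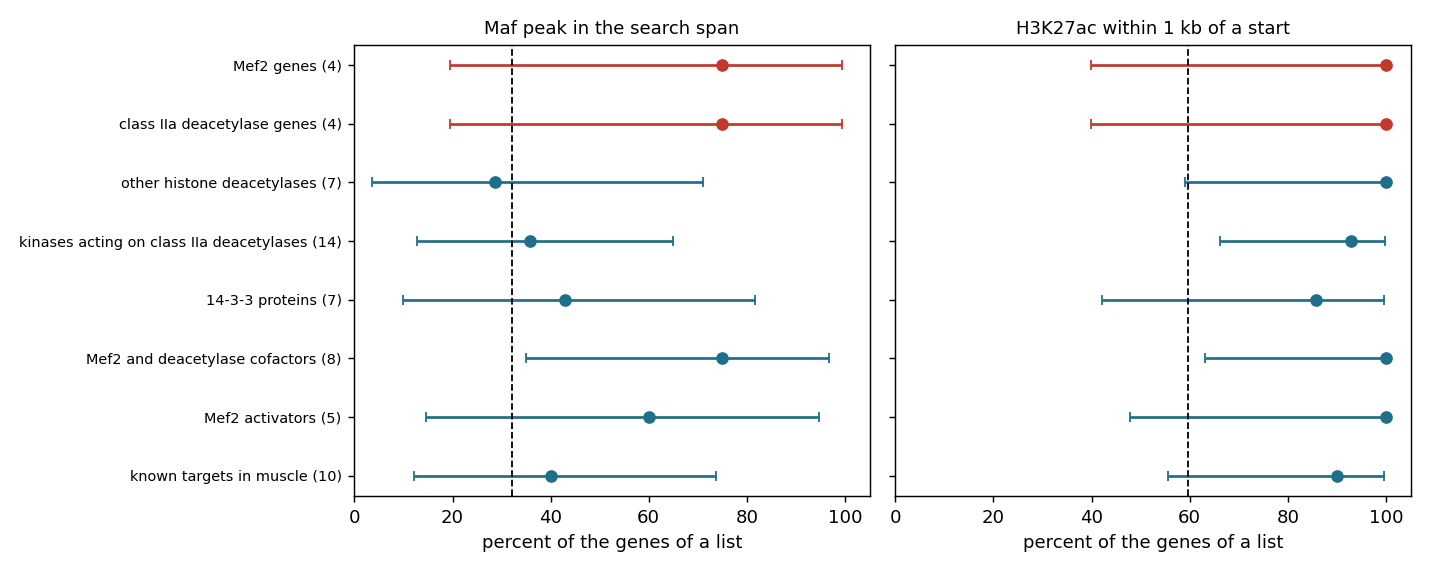
Share of genes of each list with a Maf peak in the search span (left) or H3K27ac within 1 kb of a start (right), in percent, with the number of genes in brackets and exact 95% intervals as bars. The dashed lines are the shares of all protein-coding genes (32.2 and 59.6%), and the Mef2 and deacetylase genes are each at 75% on the left.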

How the data were processed

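The authors sequenced ChIP libraries of Maf, H3K27ac and input, trimmed and aligned the reads (Bowtie2 2.3.2, Picard 2.10.3 and bcl2fastq 2.17 in the submitters' processing notes, which also name HOMER) and called peaks in each sample. The deposited lists give positions and a score that is 1 in every row. The study gives a false discovery rate for its Maf peaks, without saying which list it holds for. Other settings of the caller and the use of the input are not given in the sources used here. The chromatin of a muscle preparation was split between both antibodies, but no source says that equal replicate numbers mark the same preparation.

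Regions on the 19 autosomes, X and Y were kept, which left out 1 Maf peak of replicate 2 and 8 and 9 H3K27ac regions of replicates 1 and 2. Overlapping or touching intervals of both replicates of a target were joined, and overlap needed 1 shared base. Transcript starts were those of GENCODE for GRCm38, a promoter was 1 kb to either side of a start, and motif searches took the 200 bp around each peak centre on either strand. Negative distances lie upstream. Calculations used Python 3.11.15, numpy 2.4.6, SciPy 1.17.1 and matplotlib 3.10.9, and the code was tested on simulated intervals. The search span, the distance, the merging and the starts were varied. From each list of partner genes, up to 3 genes with the highest Maf peak were named, or all where the count was 5 or fewer. Some marker genes and the sequence of Hdac9-1 are not reported here. The members and lists were chosen with earlier results of these data known.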

Additional observations from a re-analysis of the deposited data

How the results depend on the processing

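Without Maf replicate 2 the 8 genes had 0 Maf peaks, so the counts left out by replicate ran over 0 to 6 genes and 0 to 10 peaks, and no share with H3K27ac could be given. With the first 50% of each Maf list, 1 gene (Hdac4) kept peaks, 3 in number, and 100% of these had H3K27ac. Mef2b-1 and Hdac9-2, at positions 2816 and 2878, fell just past this cut. The list ran in chromosome order there, so their loss need not reflect strength. Counting peaks by the nearest start, or 10 kb in place of 50 kb, gave 4 genes, without Mef2b and Hdac5. With the annotated 5′ end as the only start, 5 genes had promoter H3K27ac. The length covered by H3K27ac at the 8 genes was 332 kb in either replicate. It was 270 kb with 10 kb, 387 kb with 100 kb, 296 kb with the 5′ end only, 249 kb in both replicates and 278 kb with the longer 50% of each list. It was 285 to 296 kb when each H3K27ac replicate was left out, and 313 kb with starts of coding transcripts of the basic set, an alternative chosen after seeing the data. The other 31 values stayed within the set limits, which are 1.5 times for a count, the interval of a share and the replicate SD of 7.82 kb for a length. No paired analysis was possible because the results come from no test. The lists give no depth, so a missing peak does not show absence of binding, and the Maf results rest on 1 replicate.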

Other observations

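Some Maf peaks lay just outside the 50 kb limit. One stood 72884 bp upstream of the nearest Mef2a start, at list position 551 and inside H3K27ac, and Mef2a was its nearest gene by start. It stood nearer the top of the list than each of the 10 peaks inside the search spans. A pair lay 95783 and 97093 bp upstream of Mef2c, at list positions 5238 and 1437, of which the second carried H3K27ac. Near Mef2b, 59949 bp downstream of a start, a peak at position 1061 was 425 bp from the start of Slc25a42, a mitochondrial carrier gene. With 100 kb in place of 50 kb, the 8 genes had 14 peaks, 11 of them with H3K27ac, at the same 6 genes.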
